A study of Mus musculus with 16 samples.

Results

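Transcript abundance was examined for 10 genes of the cadherin switch and the epithelial to mesenchymal transition (EMT): Cdh1, Cdh2, Cdh11, Epcam, Vim, Snai1, Zeb1, Zeb2, Twist1 and Cldn6. The genes were taken by symbol. They had 11 of the 33701 RefSeq rows of the deposited abundance table (10 of 24169 genes), 2 rows for Zeb2 and 1 for each of the others. All 10 genes were above 0 in each of the 16 libraries and none was removed by the only filter, which left out genes listed at 0 in all 4 RNA samples.

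R1 mouse embryonic stem (ES) cells, for which the labels name no engineered allele, were cultured for 4 days in suspension without Lif, so that they formed embryoid bodies (EBs), aggregates in which ES cells begin to differentiate. RNA was taken at that point (day 0) and after 4 more days with 2 μM retinoic acid (RA) (day 4). The procedure was carried out on 2 occasions, and the 4 RNA samples so obtained were split, each into 4 vials that received in vitro transcribed (IVT) spike-in mix 1, 2 or 3, or were left without such spike-ins (mix 4). Every vial also received commercial ERCC control RNAs, as ERCC mix 1 beside IVT mixes 1 and 3 and as ERCC mix 2 beside IVT mixes 2 and 4. Day 4 EBs without RA were not among the samples, so that the effects of RA and of 4 more days in culture cannot be told apart. The vials of a sample are splits of one RNA, and therefore each comparison below rests on 2 RNA samples per day, each the mean of its 4 vials. The libraries were made from total RNA of whole EBs, and a lower value can stand for fewer cells of a type or for less RNA per cell, which cannot be told apart. Values are FPKM (fragments per kilobase of transcript, scaled to the mapped fragments of the library), which take transcript length into account. The labels give 39000000 to 59000000 reads per library, whereas the fragments behind single FPKM values are not in the table, and no counting error is given for them.

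In an EMT, cells of an epithelial sheet lose their junctions and apical polarity and become motile mesenchymal cells. Cdh1 (E-cadherin) holds epithelial cells together through the catenins. Its replacement by Cdh2 (N-cadherin) or other cadherins is called the cadherin switch and is known from gastrulation, neural tube formation and neural crest migration. Snai1, Zeb1, Zeb2 and Twist1 are transcription factors that drive the transition, the Snail and Zeb factors by binding E-boxes of the form CAGGTG in the promoters of epithelial genes and repressing them. ES cells are epithelial in character, and in EBs an EMT accompanies the exit from pluripotency towards mesoderm.

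The promoters of 6 of the 10 genes (Epcam, Vim, Snai1, Twist1, Cldn6 and 4 promoters of Zeb2) were present in the RefSeq promoter table, which covers 250 bases before and 50 bases after a start site. They were searched for CAGGTG on both strands, CACCTG being the same motif on the other strand. At least 1 match was present in 20.2% and at least 2 matches in 2.88% of all 32851 promoters. Epcam and Cldn6 had 2 matches each and Snai1 had 1, whereas no match was found in the windows of Vim, Twist1 and Zeb2. The sequences below show the 4 matches that lie before the start site, as the element that the Snail and Zeb factors described here are known to read. Each is 30 bases of the plus strand of GRCm38.p6 (mm10) from RefSeq with the motif in capitals. They lie at chr17:87635780-87635809 and chr17:87635948-87635977 (Epcam, motif starting 187 and 19 bases before the start site), chr2:167538057-167538086 (Snai1, 126 bases before it) and chr17:23679260-23679289 (Cldn6, 93 bases before the start site of the promoter table, 23679365, and 76 bases before the start of its RefSeq row). A match is a description of the sequence and no evidence of binding.
Epcam distal: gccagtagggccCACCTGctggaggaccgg
Epcam proximal: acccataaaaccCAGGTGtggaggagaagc
Snai1: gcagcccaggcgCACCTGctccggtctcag
Cldn6: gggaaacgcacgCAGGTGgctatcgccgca

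The libraries were compared first. The mix 3 and mix 4 vials of day 0 replicate 2 stood apart from the other vials of the same RNA, with Pearson correlations of log2(FPKM + 0.1) as low as 0.740 and a median correlation with the other day 0 libraries of 0.689 and 0.725. The slope of a library's log2 FPKM (relative to the mean of all libraries) on the GC content of the transcripts was 0.109 to 0.120 per 1% GC in the 4 vials of day 0 replicate 1. It was 0.0901 and 0.0556 in the mix 1 and mix 2 vials of day 0 replicate 2, but -0.0999 and -0.0793 in its mix 3 and mix 4 vials. All 8 day 4 libraries had negative slopes, from -0.0777 to -0.0212. Thus the GC slope moved with the day as well as with the 2 vials, and the 10 genes differ in GC content, which was highest in Snai1 (59.8%) and Twist1 (59.3%), 50.7% in Cdh1, 49.5% in Cdh2 and 46.1% in Zeb1. For this reason each fold change was also computed without the 2 vials and after a correction for GC content, and the part of GC content in the results was not tested beyond that.

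**Figure D1:**
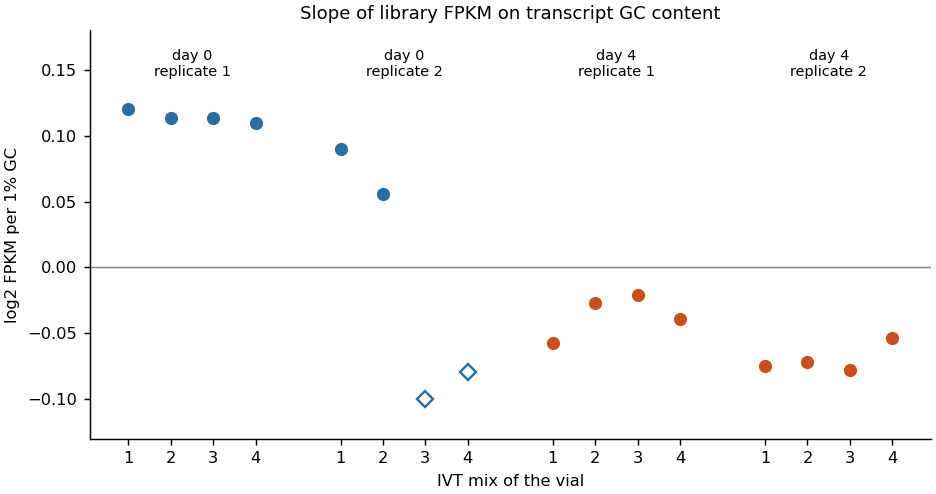
Slope of each library's log2 FPKM on transcript GC content (y axis, log2 FPKM per 1% GC) for the 4 vials of each RNA sample (x axis, IVT mix 1 to 4), blue for day 0 and orange for day 4. The 2 open diamonds are the mix 3 and mix 4 vials of day 0 replicate 2, which lie at -0.0999 and -0.0793. They are below all day 4 libraries (lowest -0.0777) and away from the other 6 day 0 libraries.

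The labelled source was checked with pluripotency markers. Pou5f1, the pluripotency factor Oct4, had 87.3 and 37.2 FPKM in the day 0 samples and 1.04 and 0.693 FPKM at day 4, and Tdgf1 (Cripto) went from 45.7 and 57.01 to 0.413 and 0.363 FPKM and Dppa5a from 48.0 and 31.6 to 6.76 and 3.57 FPKM. In all 7 of the 8 pluripotency markers were called lower and none higher, compared with 14.5% of all genes tested called lower and 16% higher. The summed FPKM of these markers was 199 and 140.0 at day 0 and 12.2 and 7.71 at day 4. It was 102 FPKM in the mix 3 and mix 4 vials of day 0 replicate 2, so that the gap between the days was present in these vials as well.

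Day 4 was then compared with day 0. Of the 10 genes, 3 rose (Cdh11, Zeb1 and Twist1) and 5 fell (Cdh1, Epcam, Vim, Snai1 and Zeb2), while Cdh2 and Cldn6 were not called (limma, adjusted p of at most 0.05 over 20496 genes). By comparison 16% of all genes tested were called higher and 14.5% lower (30.5% in either direction). The median log2 fold change was -0.76 over the 10 genes and -0.03 over all genes tested. The day 4 libraries were all above the day 0 libraries in 3 genes and all below them in 5, against 19.8% and 14.6% of all genes tested. These were the 8 genes that were called. Without the mix 3 and mix 4 vials of day 0 replicate 2, 3 genes were called higher and 6 lower (27.3% and 34.2% of all genes), and after GC correction 2 higher and 4 lower (27.5% and 24.3%). With the replicate number as a block the calls of the 10 genes were as above, against 22.5% of all genes higher and 29.1% lower.

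**Figure D2:**
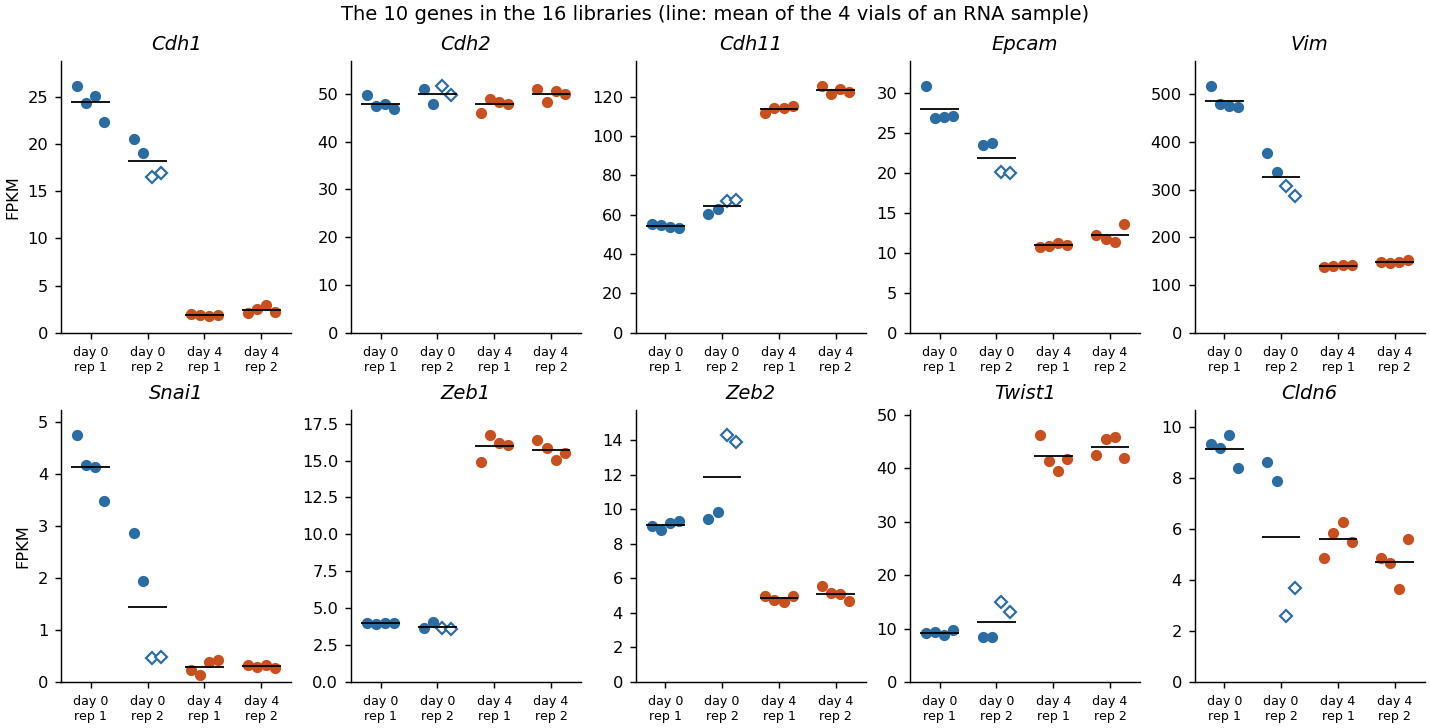
FPKM (y axis, linear, from 0, a scale of its own for each gene) of the 10 genes in the 16 libraries, grouped by RNA sample (x axis). Points are vials in the order mix 1 to mix 4, lines the mean of the 4 vials, and open diamonds the mix 3 and mix 4 vials of day 0 replicate 2. The day 0 and day 4 points separate fully in all genes except Cdh2, where they coincide, and Cldn6, where they overlap.

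Of the 3 cadherins among the 10 genes, Cdh1 (chromosome 8, 106603350 to 106670247, GRCm38) changed most. Its FPKM was 24.5 and 18.2 in the 2 day 0 samples and 1.89 and 2.44 in the 2 day 4 samples. The 8 day 0 libraries lay between 16.5 and 26.1 FPKM and the 8 day 4 libraries between 1.76 and 2.90 FPKM, without overlap. The mean fell from 21.4 ± 4.42 to 2.17 ± 0.391 FPKM (SD, n = 2), which left day 0 at 9.86 times the day 4 level (log2 fold change -3.24 ± 0.26 SE, adjusted p = 0.00660). With 2.17 FPKM at day 4, Cdh1 still stood at percentile 51.2 of the genes above 0 in the day 4 samples, compared with percentile 79.5 at day 0. The change was as large without the 2 vials (-3.30) and after GC correction (-3.04).

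Cdh2 (chromosome 18, 16588877 to 16809246), by contrast, was level. The day 0 samples had 48.0 and 50.1 FPKM and the day 4 samples 47.9 and 49.98 FPKM, with all 16 libraries between 46.1 and 51.7 FPKM. The vials that stood apart elsewhere, at 51.7 and 49.7 FPKM, did not stand apart here. The log2 fold change was -0.0031 with a 95% confidence interval from -0.37 to 0.37 (adjusted p = 0.987), and without the 2 vials the interval was from -0.20 to 0.21. A scaling of the libraries shifts this value, which was 0.12 both with the TMM factor removed and after quantile normalisation, where the median of all genes moved by 0.04 and 0.06. Cdh2 was already more abundant than Cdh1 at day 0.

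The ratio of Cdh2 to Cdh1, which does not depend on the scaling of a library, was 1.96 and 2.75 in the day 0 samples and 25.3 and 20.5 in the day 4 samples. The 8 libraries of day 0 lay between 1.91 and 3.14 and those of day 4 between 17.5 and 27.5. The log2 ratio differed by 3.24 between the days (exact permutation test, two-sided, n = 2 per day, p = 0.333, the smallest p that 6 arrangements allow). The ratio thus moved with Cdh1, since the FPKM of Cdh2 was the same at both days within the interval given above.

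Cdh11 (chromosome 8, 102632095 to 102785493), a type II cadherin of mesenchymal cells, rose. It had 54.3 and 64.4 FPKM in the day 0 samples and 113.8 and 123 FPKM in the day 4 samples. No library of day 0 exceeded 67.5 FPKM and none of day 4 was under 111.5 FPKM. The mean went from 59.4 ± 7.13 to 118.5 ± 6.67 FPKM (SD, n = 2), a ratio of 2.00 (log2 fold change 1.00 ± 0.16 SE, adjusted p = 0.0231). Cdh11 has the lowest GC content of the genes with 1 row (44.9%), and after GC correction its log2 fold change was 0.66, still called. With about the same log2 fold change, the call was lost in the mix 4 vials alone (0.99, adjusted p = 0.095) and in the mix 3 and mix 4 vials alone (0.99, adjusted p = 0.103).

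Cdh11 was the most abundant of 20 listed cadherins at both days. It made up 36% and 44.2% of their summed FPKM in the day 0 samples and 54.8% and 56.3% in the day 4 samples. Cdh2 made up 31.8% and 34.4% at day 0 and 23.0% and 22.9% at day 4, although its own FPKM was level, because the sum went from 150.9 and 146 FPKM to 208 and 219 FPKM. The share of Cdh1 went from 16.2% and 12.5% to 0.909% and 1.12%. Among the other 17 of these cadherins 6 rose and 4 fell, with a median log2 fold change of 0.09 (16% and 14.5% of all genes). Without the 2 vials 8 were called higher and 6 lower (27.3% and 34.2% of all genes), and with the replicate block 7 and 6 (22.5% and 29.1%). The largest increases were those of type II cadherins. Cdh8 went from 0.158 and 0.249 FPKM to 13.1 FPKM in both day 4 samples (log2 fold change 5.46 ± 0.27 SE). Cdh10 went from 0.491 and 0.720 FPKM to 15.5 and 17.0 FPKM (4.55 ± 0.26), and Cdh18 from 0.0163 and 0.0348 FPKM to 1.82 and 1.71 FPKM (3.90 ± 0.21). These genes are known from the developing nervous system. The largest decreases were those of Cdh4 (R-cadherin), from 1.55 and 0.922 FPKM to 0.117 and 0.0760 FPKM, Cdh22 and Cdh20, all of which were low at both days. After GC correction the log2 fold change was -2.11 for Cdh4 (-2.73 as deposited) and -1.13 for Cdh22 (-2.19). Cdh3 (P-cadherin), next in abundance to the 3 cadherins above at day 0, had 9.85 and 4.19 FPKM at day 0 against 6.08 and 4.07 FPKM at day 4 and was not called (adjusted p = 0.601). Cdh3 is named for its level, which the rule for named genes did not cover.

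**Figure D3:**
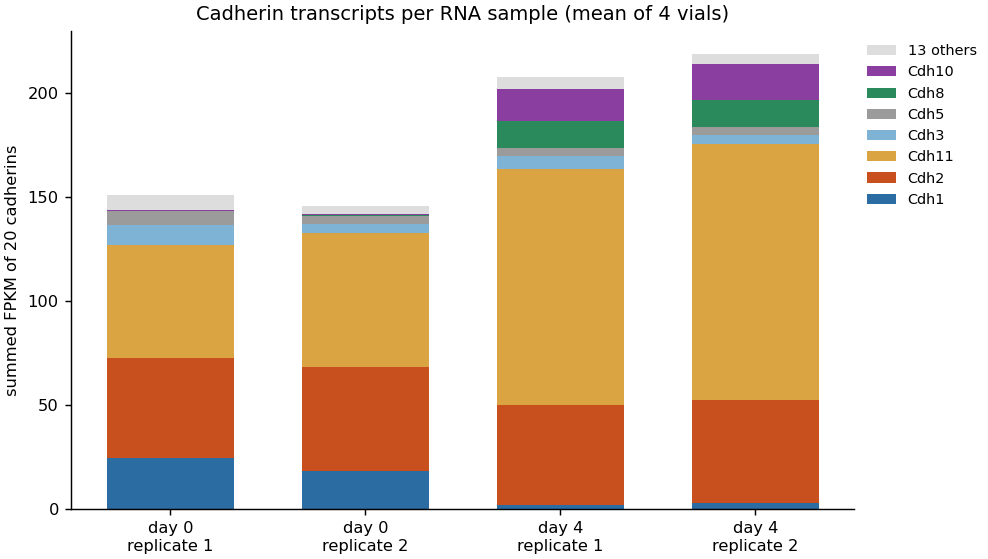
Summed FPKM (y axis, linear) of 20 listed cadherins in the 4 RNA samples (x axis), with 7 genes shown by colour and the other 13 in light grey. The Cdh1 part shrinks from 24.5 and 18.2 to 1.89 and 2.44 FPKM, the Cdh2 part stays between 47.9 and 50.1 FPKM, and Cdh11, Cdh8 and Cdh10 make up the gain at day 4.

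Epcam and Cldn6 are surface and junction proteins of epithelial and pluripotent cells. Epcam (chromosome 17, 87635979 to 87651127), a homophilic adhesion molecule, had 28.0 and 21.9 FPKM in the day 0 samples and 11.01 and 12.2 FPKM in the day 4 samples. The lowest day 0 library (20.1 FPKM) was above the highest day 4 library (13.6 FPKM). It fell by 1.09 on the log2 scale (SE 0.20, adjusted p = 0.0282), with day 0 at 2.15 times the day 4 mean. After GC correction its log2 fold change was -0.63 and it was not called (adjusted p = 0.0632). Over 21 alternatives the log2 fold change of Epcam was from -1.26 to -0.42. It was called in the GC-corrected fit with the replicate block (-0.63, adjusted p = 0.00322) and in that without the 2 vials (-0.42, adjusted p = 0.0363). Without day 0 replicate 1 it was not called either (-0.91). The 95% confidence interval of its log2 fold change (-1.63 to -0.54) lay apart from that of Cdh1 (-3.96 to -2.52), so that the decrease of Epcam was the smaller one.

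Cldn6 (chromosome 17, 23679348 to 23682446), a tight junction claudin of early embryonic epithelia, had 9.15 and 5.70 FPKM in the day 0 samples and 5.62 and 4.70 FPKM in the day 4 samples. It was not called (log2 fold change -0.48, 95% confidence interval from -1.34 to 0.38, adjusted p = 0.292). The groups overlapped through the 2 vials that stood apart, with 2.60 and 3.69 FPKM, whereas the other 6 day 0 libraries lay between 7.88 and 9.69 FPKM and the day 4 libraries between 3.65 and 6.28 FPKM. Without these vials Cldn6 was called lower (-0.75, adjusted p = 0.0120). After GC correction the direction was reversed (0.29, adjusted p = 0.0924), and with both changes made it was called higher (0.31, adjusted p = 0.0262). Over 21 alternatives the adjusted p was from 0.00803 to 0.998. No direction is given for Cldn6 (54.4% GC).

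Vim (chromosome 2, 13574311 to 13582826) encodes vimentin, the intermediate filament of mesenchymal cells. It was the most abundant of the 10 genes at both days, and it fell. The day 0 samples had 487 and 327 FPKM and the day 4 samples 141 and 149.6 FPKM. The day 0 libraries lay between 287 and 518 FPKM and the day 4 libraries between 139 and 153 FPKM. Day 0 was therefore at 2.80 times the day 4 mean (log2 fold change -1.46 ± 0.25 SE, adjusted p = 0.0260). After GC correction the log2 fold change was -0.90, and -0.62 with the correction and without the 2 vials that stood apart, both still called. The call was lost in the mix 4 vials alone (-1.32, adjusted p = 0.114) and in the mix 3 and mix 4 vials alone (-1.36, adjusted p = 0.111). Even at day 4, Vim stood at percentile 97.6 of the genes above 0.

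The 4 transcription factors did not move together. Snai1 (Snail, chromosome 2, 167538195 to 167542814) fell from 4.14 and 1.44 FPKM at day 0 to 0.292 and 0.305 FPKM at day 4 (log2 fold change -2.68 ± 0.57 SE, adjusted p = 0.0390). Its day 0 level was uneven. The vials of day 0 replicate 1 had 3.49 to 4.76 FPKM, the mix 1 and mix 2 vials of replicate 2 had 2.87 and 1.95 FPKM, and the 2 vials that stood apart had 0.452 and 0.484 FPKM, just above the highest day 4 library (0.418 FPKM). Without the 2 vials the log2 fold change was -3.03, and after GC correction it was -1.17, both still called. In the mix 3 and mix 4 vials alone it was -1.73 and not called (adjusted p = 0.439, from 5.50e-04 to 0.439 over 21 alternatives). Snai1 was thus lower at day 4 under all of these settings, but its SE was the largest of the 8 genes called.

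Zeb1 (chromosome 18, 5591327 to 5775468) and Zeb2, 2 related zinc finger homeobox repressors, changed in opposite directions. Zeb1 had 3.98 and 3.73 FPKM in the day 0 samples and 15.98 and 15.7 FPKM in the day 4 samples, with a range of 3.62 to 4.05 FPKM over the day 0 libraries and 14.9 to 16.7 FPKM over the day 4 libraries. It rose 4.11-fold (log2 fold change 2.01 ± 0.16 SE, adjusted p = 0.00663), with 1.99 without the 2 vials and 1.87 after GC correction. Zeb2 (chromosome 2, 44983512 to 45117442) had 9.09 and 11.9 FPKM in the day 0 samples and 4.84 and 5.11 FPKM in the day 4 samples. It fell, with day 0 at 2.104 times the day 4 mean (log2 fold change -1.05 ± 0.21 SE, adjusted p = 0.0350). The order of the pair was therefore exchanged, Zeb2 being the higher of the 2 in all 8 day 0 libraries and Zeb1 in all 8 day 4 libraries. The Zeb2 call was lost after quantile normalisation (-0.83, adjusted p = 0.15) and with the TMM factor removed (-0.93, adjusted p = 0.0584). Its log2 fold change was from -1.25 to -0.83 over 21 alternatives.

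Zeb2 was the only one of the genes with 2 RefSeq rows. NM_001289521 had 5.43 and 9.85 FPKM in the day 0 samples and 4.23 and 4.31 FPKM in the day 4 samples. NM_015753 had 3.65 and 2.01 FPKM at day 0, compared with 0.614 and 0.798 FPKM at day 4, which was 40.2% and 16.9% of Zeb2 at day 0 and 12.7% and 15.6% at day 4. Neither row passed the test on its own (adjusted p = 0.196 and 0.0620 over 28213 rows, of which 10.2% were called higher and 8.67% lower). The division between the rows was not stable within one RNA. In day 0 replicate 2, NM_015753 had 2.76 and 3.48 FPKM in the mix 1 and mix 2 vials and 0.993 and 0.793 FPKM in the mix 3 and mix 4 vials, and NM_001289521 6.66 and 6.36 against 13.3 and 13.1 FPKM. NM_015753 was called lower without these 2 vials (-2.12, with 29.6% of all rows called lower) and after GC correction (-2.24, adjusted p = 0.0307, with 17.3% of all rows called lower), whereas NM_001289521 was called in neither (-0.47 and -0.87). RSEM divides fragments between rows that share exons, and the decrease of Zeb2 is best read on the gene level.

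Twist1 (chromosome 12, 33957671 to 33959831), a bHLH factor of mesoderm and neural crest mesenchyme, rose. The day 0 samples had 9.25 and 11.2 FPKM and the day 4 samples 42.2 and 43.9 FPKM. The highest day 0 library had 14.96 FPKM and the lowest day 4 library 39.5 FPKM. The mean rose 4.21-fold (log2 fold change 2.07 ± 0.17 SE, adjusted p = 0.00685). In the 2 vials that stood apart Twist1 was higher (14.96 and 13.1 FPKM) than in the other vials of the same RNA (8.39 FPKM in both). Snai1, which has nearly the same GC content, was lower in them, and the cause of either difference was not tested. After GC correction the log2 fold change of Twist1 was 2.98 with an SE of 0.94 and was not called (adjusted p = 0.0654). Over 21 alternatives the log2 fold change of Twist1 was from 1.88 to 4.03. With the correction and the replicate block it was called (adjusted p = 0.0114), as it was with the correction and without the 2 vials (4.03).

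**Figure D4:**
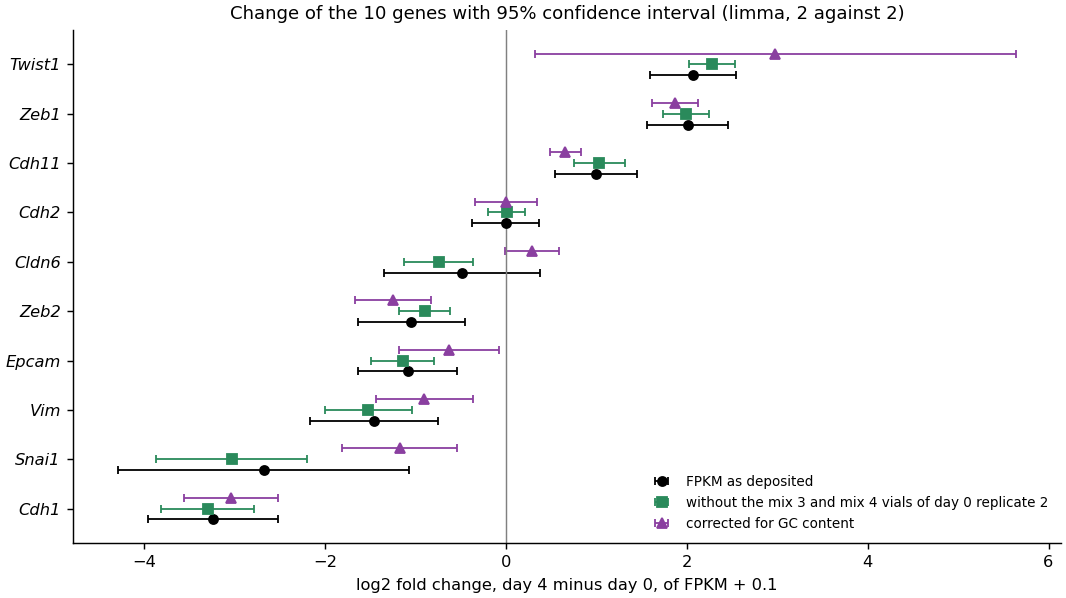
Log2 fold change of FPKM + 0.1, day 4 minus day 0 (x axis), of the 10 genes (y axis) with 95% confidence intervals from limma, 2 RNA samples per day. Black circles use FPKM as deposited, green squares leave out the mix 3 and mix 4 vials of day 0 replicate 2, and purple triangles are corrected for GC content. Cdh1 (-3.24), Zeb1 (2.01) and Cdh2 (-0.0031) hardly move between the settings, whereas Snai1, Twist1 and Cldn6 shift most. Vim (-0.90), Epcam (-0.63) and Cdh11 (0.66) lie closer to 0 after GC correction than as deposited.

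All of these calls depend on having both RNA samples of day 4. With either one left out, 0 of 20496 genes passed the adjusted threshold in limma, with 4934 genes (without day 4 replicate 1) and 4716 genes (without day 4 replicate 2) at an unadjusted p under 0.05. Among these were Cdh1, Zeb1 and Twist1 but none of the other 7 genes. The log2 fold changes themselves moved little, with Cdh1 at -3.06 and -3.42, Zeb1 at 2.00 and 2.02 and Twist1 at 2.0975 and 2.04.

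The genes of the same pathway were described next, as lists, each of which is to be read against the share of all genes called under the same setting. These shares were 16% higher and 14.5% lower as deposited, 27.5% and 24.3% after GC correction, 27.3% and 34.2% without the mix 3 and mix 4 vials of day 0 replicate 2, and 22.5% and 29.1% with the replicate block. Of 15 catenins and partners of the adherens junction 2 rose and 6 fell, with a median log2 fold change of -1.17. Ctnnb1 (beta-catenin), which links cadherins to the cytoskeleton and also carries the Wnt signal, went against the list. It had 351 and 302 FPKM at day 0 against 679 and 680.4 FPKM at day 4 (log2 fold change 1.06 ± 0.17 SE, adjusted p = 0.0235). Ctnna2, the alpha-catenin of neurons, was the other gene that rose and was low at both days, from 0.244 and 0.218 to 0.538 and 0.534 FPKM. Vcl (vinculin) fell from 38.5 and 35.7 FPKM to 13.7 and 14.7 FPKM (-1.38 ± 0.14). Camsap3 and Nectin1 also fell, both from levels of 2.55 FPKM or less, with log2 fold changes of -2.81 and -1.80 that were -1.45 and -0.72 after GC correction. After GC correction 3 genes of this list were called higher and 9 lower, and both without the 2 vials and with the replicate block 3 were higher and 11 lower.

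Of 23 genes of the epithelial state none rose and 14 fell, and the median log2 fold change was -1.71. St14 (matriptase), a membrane serine protease, went from 14.8 and 5.32 FPKM to 0.421 and 0.328 FPKM (-4.25 ± 0.57). The keratins of simple epithelia, Krt8 and Krt18, had 469 and 365 FPKM in day 0 replicate 1, 179 and 168 FPKM in day 0 replicate 2, and 15.8 to 28.8 FPKM in the day 4 samples. Both were called lower (-3.98 ± 0.54 and -3.27 ± 0.44). After GC correction the 3 genes were still called, with smaller log2 fold changes of -2.96 (St14), -2.63 (Krt8) and -2.16 (Krt18). In the lowest day 0 libraries Krt8 was at 54.6 FPKM and Krt18 at 46.3 FPKM, still above the highest day 4 libraries (25.4 and 32.6 FPKM). After GC correction 13 genes of the list were called lower and 2 higher, and without the 2 vials 19 were lower and 3 higher.

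Of 25 other claudins and tight junction genes that were tested (Cldn18 was listed at 0 throughout) 6 rose and 4 fell, with a median of -0.05. All 6 genes that rose were claudins. Cldn2 and Cldn10 were below 1 FPKM at both days, as were Cldn8 (from 0.00800 and 0.00250 to 0.280 and 0.482 FPKM) and Cldn1 (from 0.0688 and 0.0810 to 0.357 and 0.406 FPKM). Cldn11 went from 2.89 and 3.14 to 7.10 and 9.57 FPKM, and Cldn12, the most abundant of them, from 20.5 and 27.2 to 41.8 and 46.1 FPKM (0.89 ± 0.20, adjusted p = 0.0440). The genes that fell included Cgn (cingulin, from 5.97 and 3.37 to 1.23 and 1.08 FPKM), Marveld2 and Marveld3, components of the tight junction. Their log2 fold changes were -1.88 ± 0.36 (-1.13 after GC correction), -1.61 ± 0.27 and -1.28 ± 0.28. The balance of this list moved with the setting, with 11 genes higher and 6 lower after GC correction, 7 higher and 9 lower without the 2 vials, and 8 higher and 11 lower with the replicate block.

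Of the other 11 EMT transcription factors 5 rose and 3 fell, with a median of 0.37. Foxc2, a forkhead factor of mesenchyme, went from 0.136 and 0.106 FPKM to 13.8 and 16.4 FPKM (6.10 ± 0.25 SE, adjusted p = 0.00460). The related Foxc1 rose from 0.829 and 1.11 to 7.28 and 8.30 FPKM, and Prrx1, a homeobox gene of mesenchyme, from 0.408 and 0.468 to 4.57 and 5.37 FPKM. On the other side Gsc (goosecoid), a gene of the organizer and primitive streak, had 1.69 and 0.469 FPKM at day 0 and was listed at 0 in all 8 day 4 libraries. Klf8 fell from 13.6 and 19.5 to 2.97 and 3.26 FPKM. GC correction changed the log2 fold changes of Foxc2 to 6.85, of Foxc1 from 2.90 to 3.53, of Gsc from -3.33 to -2.28 and of Snai3 from -2.09 to -1.39, with all 4 still called. The Snail genes were divided. Snai3 was below 1 FPKM at both days and fell like Snai1, but Snai2 (Slug) rose from 1.62 and 2.16 to 6.98 and 7.44 FPKM (1.89 ± 0.24, adjusted p = 0.0142), and was also called higher after GC correction (1.44) and without the 2 vials (2.07). Hmga2 was called higher as well, from 35.8 and 52.7 to 83.1 and 93.8 FPKM. Twist1, Zeb1, Foxc1, Foxc2, Prrx1, Snai2 and Hmga2 were therefore higher at day 4, while Snai1, Snai3, Zeb2, Klf8 and Gsc were lower.

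The mesenchymal genes were divided as well, with 8 of 20 higher and 6 lower and a median of 0.01. After GC correction 10 were higher and 8 lower, and both without the 2 vials and with the replicate block 9 were higher and 9 lower. Col3a1 (fibrillar collagen) went from 1.18 and 0.551 FPKM to 163 and 152 FPKM (7.43 ± 0.38 SE). Postn (periostin) went from 0.510 and 0.357 to 38.5 and 33.7 FPKM (6.10 ± 0.24) and Dcn (decorin) from 0.0465 and 0.0345 to 4.10 and 4.50 FPKM (4.97 ± 0.23). Fn1 (fibronectin), which is often used together with Vim as a marker of EMT, changed in the other direction. It had 256 and 164 FPKM at day 0, compared with 6.88 and 6.08 FPKM at day 4 (-4.97 ± 0.27, adjusted p = 0.00467). Itga5, which encodes a subunit of the fibronectin receptor, fell from 8.95 and 4.26 to 1.40 and 1.03 FPKM, and Thy1 fell from 1.56 and 0.900 to 0.180 and 0.145 FPKM. Their log2 fold changes of -2.27 and -2.30 were -0.94 and -1.46 after GC correction, both still called. The 3 fibrillar collagen genes of the list went both ways. Col1a2 rose from 5.41 and 2.76 to 23.2 and 22.6 FPKM (2.53 ± 0.37, adjusted p = 0.0189, and 3.43 after GC correction), whereas the level of Col1a1 was 19.99 and 5.98 FPKM before RA and 2.00 and 1.62 FPKM after it. Col1a1 was not called (-2.54 ± 0.65, adjusted p = 0.0561) but was called lower after GC correction (-1.23) and without the 2 vials (-2.85). Vim thus fell together with Fn1, while Col3a1, Col1a2, Postn and Dcn of the same list rose.

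TGF-beta signals are among the known inducers of EMT. Of 11 ligands, receptors, Smads and Smad regulators 3 rose and 2 fell, with a median of 0.44. This count depended on the setting, with 6 higher and 1 lower after GC correction, 9 higher and 2 lower without the 2 vials, and 5 higher and 2 lower with the replicate block. Of the ligands, Tgfb3 rose from 0.720 and 0.435 FPKM to 62.8 and 47.4 FPKM (6.37 ± 0.31 SE), and Tgfb1 fell from 9.81 and 4.04 to 0.645 and 0.438 FPKM (-3.34 ± 0.53, and -1.81 after GC correction). The receptors Tgfbr1 (19.99 and 31.6 to 85.6 and 101 FPKM) and Tgfbr3 (4.29 and 3.77 to 8.85 and 8.68 FPKM) rose. Smad7, an inhibitor and target of the pathway, fell from 16.8 and 11.7 to 5.55 and 5.34 FPKM, a call that was lost after GC correction (-0.30). The precursors of miR-200 and miR-205, which are known to repress Zeb1 and Zeb2, were listed at 0 in all libraries (6 of 6 genes, among them Mir200a and Mir200b). So were 3673 of all 24169 genes. Whether libraries of this kind can count fragments of these precursors was not tested, so that the 0 is no evidence of their absence. Mature miRNAs were not analysed here.

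**Figure D5:**
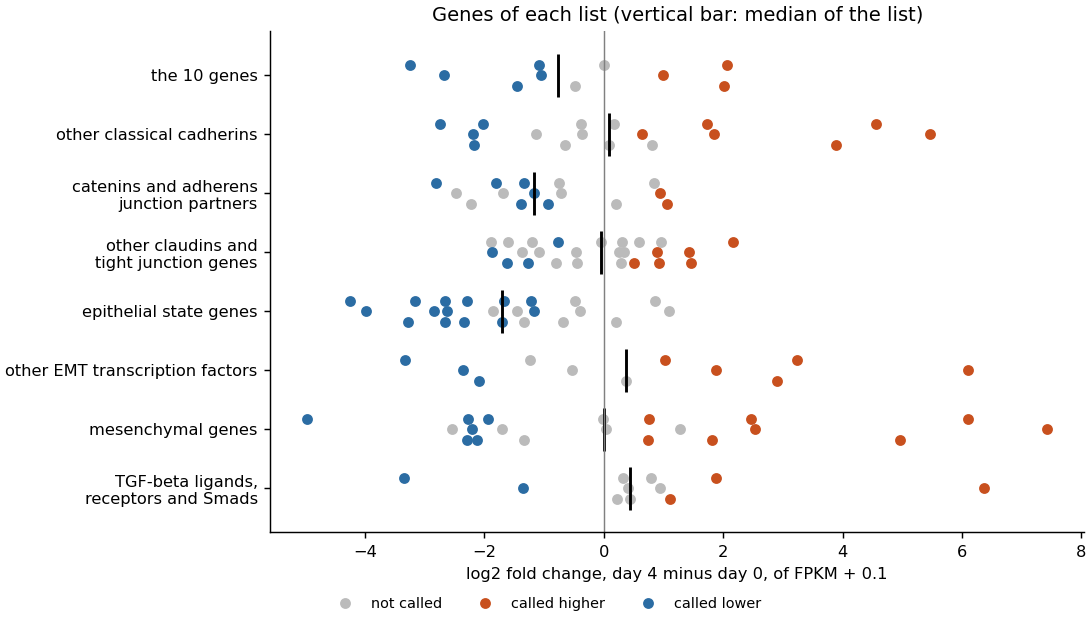
Log2 fold change of FPKM + 0.1, day 4 minus day 0 (x axis), of every gene tested in the 10 genes and in 7 lists of related genes (y axis), with genes called higher in orange, called lower in blue and not called in grey, and the median of each list as a black bar. The epithelial state genes lie mostly below 0 (median -1.71), whereas cadherins, transcription factors and mesenchymal genes spread to both sides.

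Markers of other cell types moved between the days too, and since whole EBs were used their part in the changes of the 10 genes was not tested. Their counts, too, are to be read against the share of all genes called under the same setting. As deposited this was 16% higher and 14.5% lower, and after GC correction 27.5% and 24.3%. It was 27.3% and 34.2% without the 2 vials and 22.5% and 29.1% with the replicate block. Of 11 markers of extraembryonic endoderm, an epithelium that forms on the surface of EBs, 6 were called higher and 1 lower, and 7 higher and 3 lower without the 2 vials. Their summed FPKM was 21.8 and 20.6 at day 0 and 85.2 in both day 4 samples. At day 4 most of it was Gata6, with 53.2 and 55.7 FPKM against 6.25 and 6.47 FPKM at day 0, where Gata4 was the most abundant of the list (6.60 FPKM in the mean), while Afp (at most 1.19 FPKM in any library) and Apoa1 (at most 1.73 FPKM) rose from near 0 and Sox7 fell. Of 10 mesoderm markers 2 were called higher and 5 lower, against 4 and 6 without the 2 vials, and the sum went from 180.2 and 152 to 41.4 and 44.7 FPKM. T (brachyury), Mixl1 and Hand1, genes of the primitive streak and early mesoderm, had 72.7 and 61.3, 35.2 and 43.5, and 36 and 18.3 FPKM at day 0 and 0.515 FPKM or less at day 4. Tbx18 and Meox1, which mark later mesoderm, rose to 4.35 and 5.41 and to 2.66 and 2.90 FPKM. At day 4 Foxf1 was the most abundant of this list (30.6 FPKM) and Mesp1 was listed at 0 in all libraries.

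Of 10 neural markers 5 were called higher and 3 lower, and the sum was 44.8 and 29.7 FPKM at day 0, compared with 50.6 and 50.7 FPKM at day 4. The most abundant at day 4 was Ncam1, an adhesion molecule, which rose from 2.91 and 2.69 to 26.5 and 24.1 FPKM. Dcx, a microtubule protein of young neurons, rose to 2.13 and 2.503 FPKM. Of the neural progenitor genes Pax6 was called higher and Sox1 lower, with at most 0.499 and 0.135 FPKM in any library, and the call of Sox1 was lost after GC correction (-0.24, adjusted p = 0.599). Elavl3 (at most 0.315 FPKM) fell, and the neuronal tubulin Tubb3 fell from 17.6 and 6.46 to 0.874 and 0.648 FPKM (-3.66, and -2.42 after GC correction). Of 8 neural crest markers 1 was called higher (Tfap2b) and 3 lower (Sox10, Foxd3 and Tfap2a), none of them above 0.259 FPKM in any library. After GC correction Sox10 (-0.24, adjusted p = 0.213) and Foxd3 (-0.51, adjusted p = 0.179) were not called, and Foxd3 was not called without the 2 vials either (adjusted p = 0.0589). Other genes of the list gained a call, so that 2 of the 8 markers were higher and 3 lower after GC correction. Their sum of 36.4 and 32.9 FPKM at day 0 against 27.5 and 27.8 FPKM at day 4 was mostly Ets1 (30.3 and 23.8 FPKM in the mean of each day).

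Of 6 surface ectoderm markers 1 was higher (Trp63, at most 0.272 FPKM) and 1 lower (Tfap2c, from 6.49 and 4.72 to 0.386 and 0.241 FPKM), with sums of 10.4 and 6.79 FPKM at day 0, compared with 1.497 and 1.48 FPKM at day 4. In this list 5 genes were called lower without the 2 vials and 4 with the replicate block. Of 7 endothelial and blood markers 1 was higher (Hba-x) and 4 lower (among them Tal1, Gata1 and Kdr), against 2 and 4 without the 2 vials, with sums of 128 and 106.0 FPKM at day 0 against 124 and 102 FPKM at day 4. The most abundant was Kdr at day 0 (45.0 FPKM) and the globin Hbb-bh1 at day 4 (69.7 FPKM). Of 6 cardiac and muscle markers none was higher and 2 were lower (Actc1 and Myh6), with 4 lower both without the 2 vials and with the replicate block. Their sums were 9.85 and 5.94 FPKM at day 0, compared with 4.65 and 3.42 FPKM at day 4, mostly Myl7 (4.05 and 2.22 FPKM in the mean of each day), and Nkx2-5 was listed at 0 in the day 4 libraries. Transcripts from each of these marker lists were thus present at both days, in some lists mostly from 1 gene, and the presence of a cell type was not tested.

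The genes whose pattern was most like that of Cdh1 over the 16 libraries, among 11584 genes with a mean of at least 1 FPKM, were Utrn, Rhpn2 and Sall1 (Pearson r = 0.997 for each on the log2 scale). Each of them was lower at day 4. Utrn had 20.04 and 18.5 FPKM at day 0 against 8.13 and 8.54 FPKM at day 4, Rhpn2 14.0 and 12.3 and then 4.16 and 4.55 FPKM, and Sall1, a zinc finger gene of ES cells, 7.11 and 5.00 and then 0.121 and 0.148 FPKM. The genes most like Cdh2 were 9330151L19Rik, Dnajc25 and AA414768 (r = 0.760, 0.722 and 0.705), which were not called either. The libraries of one RNA share their source, and for Cdh1 the correlation mostly follows the step between the days.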

How the data were processed

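Total RNA of EBs was sequenced as stranded, ribosomal RNA-depleted paired-end libraries. The authors mapped the reads with Bowtie2 (2.1.0) to RefSeq transcripts of mm10 plus spike-ins, estimated abundance with RSEM (1.2.18) and deposited FPKM scaled by a TMM factor per library. Divided by that factor, 100% of the values under 20 FPKM were multiples of 0.01 (within 0.0006 FPKM), so that low values are coarse. The 16 columns were assigned by sample titles (0 without a sample), and the RNA replicate of each vial was taken from the study's sample table. The 48 spike-in rows and 1 further spike-in transcript were left out. FPKM were summed per gene and averaged over the 4 vials of an RNA sample. Day 4 and day 0 (2 against 2) were compared on log2(FPKM + 0.1) with limma 3.58.1 (lmFit, eBayes with a trend) in R 4.3.3, with Benjamini-Hochberg adjustment over all 20496 genes. The offset lowers the fold changes of genes near or below 0.1 FPKM. RefSeq rows were fitted likewise. The study repeated its procedure to obtain the replicates, and the replicate number was taken to mark the occasion in a fit with a replicate block. The differences between replicates 1 and 2 at day 0 and at day 4 correlated with r = 0.768 over 11584 genes, on 2 pairs. Tables and figures were made in Python (3.11.15) using pandas (2.3.3), numpy (2.4.6), matplotlib (3.10.9) and, for the permutation test, scipy (1.17.1). In the GC correction the FPKM of a library were divided, in 20 GC bins (13893 rows), by their departure from the mean library, which can also remove biological differences linked to GC content. The scripts were tested on simulated data with 20496 genes. With 6000 genes changed by 1 or by 2 on the log2 scale, 51.4% and 81.2% of them were recovered. The fit with the replicate block recovered 19.5% and 70.1%. The simulated samples had independent noise and no effect shared by replicate number, unlike the data (r = 0.768). These percentages therefore do not rank the 2 fits on the data. With 200 genes changed 0% were recovered in either fit, so that a gene not called may still have changed.

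The members and lists were chosen with earlier results of these data known. Named were all 10 members, up to 3 called genes per direction with the largest log2 fold change in each list (or the 2 most abundant), and the 3 genes most correlated with Cdh1 and with Cdh2. Cdh3, Cldn2, Cldn10, Cldn12, Cldn18, Snai2, Hmga2, Col1a1, Col1a2, and the markers Gata4, Foxf1, Mesp1, Ets1, Hbb-bh1, Myl7 and Nkx2-5 (the most abundant of a list or at 0) were named after their values were seen. In all 21 alternative settings were run, of which 2 were chosen after the data were seen. Symbols of 99.2% and GC content of 97.4% of the rows were matched, and coordinates are those of the RefSeq annotation of GRCm38.p6.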

Additional observations from a re-analysis of the deposited data

How the results depend on the processing

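The design has 2 RNA samples per day, and depth limits the low genes, whose FPKM move in steps of 0.01. Over the 21 alternatives the log2 fold changes of the 10 genes gave 159 values with the same direction and side of the threshold, 35 that lost a call, 2 that gained one and 14 of the opposite sign. Of the numbers of genes and rows called 37 stayed within 1.5 times the value given above, 27 were higher and 20 lower. The difference of the log2 Cdh2 to Cdh1 ratio was 2.81 to 3.48 over the 13 alternatives that apply to it, and its test cannot pass the threshold. Of the counts of the lists 448 stayed within 1.5 times the value given above, 76 were higher and 148 lower. Where no cause is given it was not tested.

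Genes called higher numbered 3281 and lower 2972. They were 2093 higher with a mean of at least 1 FPKM (fewer genes tested), 5641 and 4976 after GC correction, 5562 and 6966 without the mix 3 and mix 4 vials of day 0 replicate 2, 6947 and 6206 with both, 836 and 283 in the mix 4 vials alone, 886 and 299 in the mix 3 and mix 4 vials alone, and 5235 and 6829 in the mix 1 and mix 2 vials alone. With 16 libraries and the RNA as a random block, where the vials also enter the estimate of the spread, 4580 were lower. RefSeq rows called numbered 2875 higher and 2446 lower. They were 5269 and 4883 after GC correction, 6272 and 8294 without the 2 vials, 7544 and 7322 with both, 5691 and 7815 in mixes 1 and 2, 5500 and 5409 with the random block, and 1462 lower with the mean of log2 values. In mix 4 alone and in mixes 3 and 4 alone 0 rows were called by limma (5313 and 5417 at an unadjusted p under 0.05).

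Cdh2 changed sign around 0: 0.1167 without the TMM factor, 0.1237 after quantile normalisation, 0.0008 after GC correction, 0.0064 without the 2 vials, 0.0924 with both, 0.0057 without the mix 1 vial of day 4 replicate 1, 0.0196 in mix 4 and 0.0060 in mixes 3 and 4. Cldn6 was 0.2887 after GC correction and 0.3082 also without the 2 vials, and was called lower without them (-0.7455) and in mixes 1 and 2 (-0.7786). In mix 4 alone and in mixes 3 and 4 alone the calls of Cdh11 (0.9857 and 0.9863), Epcam (-0.9240 and -0.9784), Vim (-1.3185 and -1.3569), Snai1 (-1.7244 and -1.7271) and Zeb2 (-1.2159 and -1.2197) were lost, and that of Twist1 in mixes 3 and 4 (1.8774). The calls of Epcam (-0.6289) and Twist1 (2.9798) were lost after GC correction but not with GC correction and the replicate block, and that of Zeb2 without the TMM factor (-0.9310) and after quantile normalisation (-0.8310). Snai1 was not called with an offset of 1 FPKM (-1.4473), without a trend (-2.6805) or with the mean of log2 values (-2.5246).

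Leaving out 1 RNA sample gave 0 to 3671 genes higher and 0 to 5555 lower, and 0 to 3048 rows higher and 0 to 4747 lower. The log2 fold changes lay from -3.4500 to -3.0267 for Cdh1, -0.0344 to 0.0282 for Cdh2, 0.8768 to 1.1221 for Cdh11, -1.2644 to -0.9088 for Epcam, -1.7437 to -1.1720 for Vim, -3.4130 to -1.9481 for Snai1, 1.9663 to 2.0558 for Zeb1, -1.2360 to -0.8562 for Zeb2, 1.9317 to 2.2071 for Twist1 and -0.8193 to -0.1449 for Cldn6. In these fits the lone sample of a day is assumed to vary like the samples of the other day.

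With the replicate block 4615 genes were higher and 5961 lower (5898 rows lower), and no call of the 10 genes changed. With the block and GC correction the numbers were 6092 and 5606 genes and 5308 and 5319 rows, Cdh2 was 0.0008 and Cldn6 0.2887, and Epcam (adjusted p = 0.00322) and Twist1 (adjusted p = 0.0114) were called.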
